A study of Homo sapiens with 3 samples.

Results

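The genes described here are reported targets of the microRNAs miR-15 and miR-16. Their messages are described in HEK293, a human cell line of embryonic kidney origin. The genes were chosen by name from a list of 35 symbols. Of these, 32 had a row among the 12040 genes of the authors' deposited table, and WNT3A, CAPN6 and UNC80 had none. Poly(A) RNA was sequenced from 3 libraries, 1 per group: cells transfected to knock down DICER1, cells transfected to knock down DROSHA, and mock-transfected cells. All 3 cultures were a T-REx Flp-In derivative of HEK293 carrying a FLAG:DICER1 transgene. All were transfected, for RNA interference in the knockdowns and as a mock in the remaining culture. Every title also carries 2.5d, which the labels do not explain. The sources used here do not give whether the transgene was induced or whether the line is 1 clone.

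MicroRNAs are cut from hairpin precursors by DROSHA in the nucleus and then by DICER1 in the cytoplasm. The mature strand guides an Argonaute protein to messenger RNAs, mainly through pairing of its seed, bases 2 to 8, with the 3' UTR, and pairing lowers the level or the translation of the target. The miR-15 and miR-16 family is known for targets that drive the cell cycle, such as the D-type cyclins, and for its loss in chronic lymphocytic leukaemia. The comparisons ask how the messages of such targets stand when either enzyme is knocked down.

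The mature sequences show what a target has to match. They are given 5′ to 3′ from RefSeq on GRCh38.p14, with the seed in capitals, and all 8 names looked for had an entry.
miR-15a-5p: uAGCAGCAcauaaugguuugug
miR-15b-5p: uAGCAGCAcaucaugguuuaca
miR-16-5p: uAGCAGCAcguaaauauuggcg
miR-195-5p: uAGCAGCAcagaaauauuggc
miR-497-5p: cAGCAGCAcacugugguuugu
miR-424-5p: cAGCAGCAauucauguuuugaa
miR-6838-5p: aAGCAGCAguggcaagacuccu
miR-503-5p: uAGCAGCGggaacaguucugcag
The first 7 share the seed AGCAGCA, and miR-503-5p has the seed AGCAGCG. The mature miR-16-5p is the same from both of its genes, at chr13:50049027-50049048 on the minus strand and at chr3:160404754-160404775 on the plus strand. miR-15a-5p lies beside the first of these, at chr13:50049167-50049188, and miR-15b-5p beside the other, at chr3:160404607-160404628. Mature microRNAs were not measured in these libraries.

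A 3' UTR was searched on its sense strand for TGCTGCTA, the 8-base match to the shared seed with an A after it, and for the 7-base matches TGCTGCT and GCTGCTA, which both lie within the 8-base one. Sequences came from 1 GENCODE release 29 transcript per gene, on GRCh38, a later build than the hg19 that the submitters' processing notes name. For all 32 genes the annotated 3' UTR was 50 bases long or more. The matches of 7 genes are shown as examples of both lengths. They are those of the cyclin, CDK and CDC25 targets, and of WEE1, FGF2 and ZNF622, which are among the higher targets in the second comparison. Each is given 5′ to 3′ on the transcript strand, with the match in capitals at the end of a window of 30 bases.
CCND1 (chr11:69653293-69653322, plus strand): tgtgtatctctttcacattgttTGCTGCTA
CDC25A (chr3:48158264-48158293, minus strand): ggaggcgctgtggtactggggcTGCTGCTA
WEE1 (chr11:9589124-9589153, plus strand): tggaggtattgccttgtgaattTGCTGCTA
FGF2 (chr4:122897440-122897469, plus strand): taaactgtaatattagaaattaTGCTGCTA
ZNF622 (chr5:16451559-16451588, minus strand): cagatcataggagagaccctttTGCTGCTA
CCND3 (chr6:41935320-41935349, minus strand): ttctcctgtgtgattgacagcttTGCTGCT
CDK6 (chr7:92609661-92609690, minus strand): agttaaaacacacataccctctcTGCTGCT
The first 5 are 8-base matches and the last pair are 7-base matches. A match is a string of letters and was not shown here to be bound. All of these windows lie in the 3' UTR within a single exon. The examples were picked in part by value and do not stand for all targets. CARD8, at 0.45 in the second comparison, had no match, and SLC7A2, at -0.68, had 3 match starts.

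Of the 32 targets, 15 (46.9%) carried the 8-base match, against 479 (4.62%) of the 10376 genes of the table with such a 3' UTR. A further 14 (43.8%) carried only a 7-base match, against 2333 (22.5%) of all genes. No match was found in CLSPN, CARD8 and SPTLC1 in the transcripts used. The number of match starts, with overlapping matches each counted, was 1 in 7 targets and 2 in 12, and it reached 6 in KIF1B and LUZP1. Since these genes were listed as targets in the first place, their richness in matches is not independent evidence. Their median 3' UTR length was 2053 bases, against 1191 bases over all genes, and a longer 3' UTR holds more matches of any kind.

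The table has no header. Its fold changes are the authors' log2 ratios of a level to 1 shared denominator level, with 1 added to each level, and they are called the first and the second comparison in the order of the table. No column name ties either comparison to a knockdown, so none is assigned. For the targeted genes, the authors' deposited table gave first and second values of -1.32 and 0.58 (DICER1) and of -0.11 and -1.65 (DROSHA). Reads of the transgene can count toward DICER1. Of 11 genes fixed as HEK293 markers 8 had a row, without NEFM, PAX2 and LHX1, and of 12 markers of blood, liver, endothelium, fibroblasts and glia only OLIG2 had one. Each group is 1 library, so replicate error could not be measured and nothing was tested, and the depth of the libraries is unknown. Genes with a log2 fold change of 0.5 or more in size (1.41-fold) are called as risen or fallen, and each value describes these libraries only. In bulk RNA, fewer cells of a type and less RNA per cell cannot be told apart.

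Most of the target genes stood close to 0. In the first comparison none of the 32 rose or fell, where 1.46% of all genes rose and 2.04% fell, 3.5% in all. In the second comparison ZNF622 rose and SLC7A2 fell. That is 1 target in each direction, where 2.33% of all genes rose and 5.59% fell. In the first minus the second fold change, which sets the numerator libraries against each other without the shared one, CCND1 and SLC7A2 stood at 0.5 or more and FGF2 and SPTLC1 at -0.5 or less. These are 2 targets above and 2 below, where 8.6% of all genes lay above and 4.82% below. After the median of genes of like GC content was subtracted, an alternative added after seeing the data, FGF2 and SPTLC1 were no longer past the threshold, at -0.40 and -0.46, and CCND3 was past it, at -0.58. The share of all genes past the threshold after that subtraction was not computed. Without the subtraction, the share of targets past the threshold was 6.25% in the second comparison and 12.5% in the difference, near the 7.92% and 13.4% of all genes. At a threshold of 0.25, 4 targets passed in the first comparison, where 21.6% of all genes did, 10 in the second, where 33.2% did, and 12 in the difference, where 41.8% did. At a threshold of 1 none passed, where 0.341%, 0.831% and 1.66% of all genes did.

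**Figure D1:**
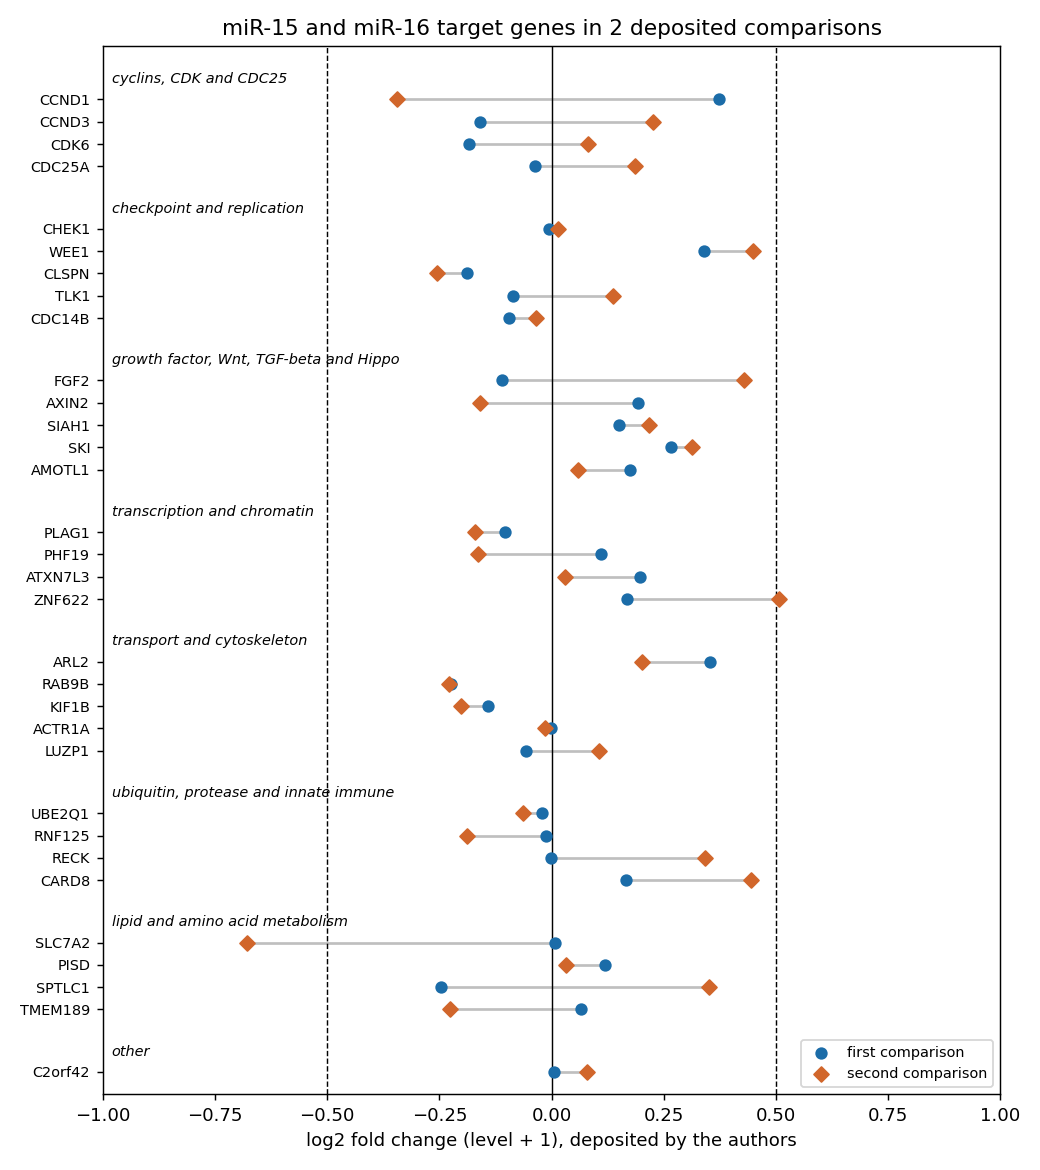
Deposited log2 fold changes (x axis) of the 32 target genes (rows, by role) in the first comparison (circles) and the second (diamonds), with dashed lines at 0.5 in size. ZNF622 and SLC7A2 alone lie past a dashed line, both in the second comparison. CCND1 is among 5 targets above 0 in the first comparison and below it in the second, and 9 are the reverse. Of all genes, 26.3% and 20.9% have these patterns.

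The median over the 32 targets was -0.0012 in the first comparison, against 0.03 over all genes, and their values ran from -0.25 to 0.37. In the second comparison the median of the targets was 0.05, against 0.0063 over all genes, with a range of -0.68 to 0.51. The difference had a median of -0.0079 for the targets and 0.02 for all genes. Targets above 0 numbered 15 (46.9%) in the first comparison, against 56.5% of all genes, and 19 (59.4%) in the second, against 51.1%. In the second comparison 11 of the 32 targets (34.4%) lay above the upper quartile of all genes and 7 (21.9%) below the lower one. For the difference 5 lay above and 9 below. The comparisons share their denominator library, and 10 targets (31.2%) were above 0 in both, against 30.2% of all genes.

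**Figure D2:**
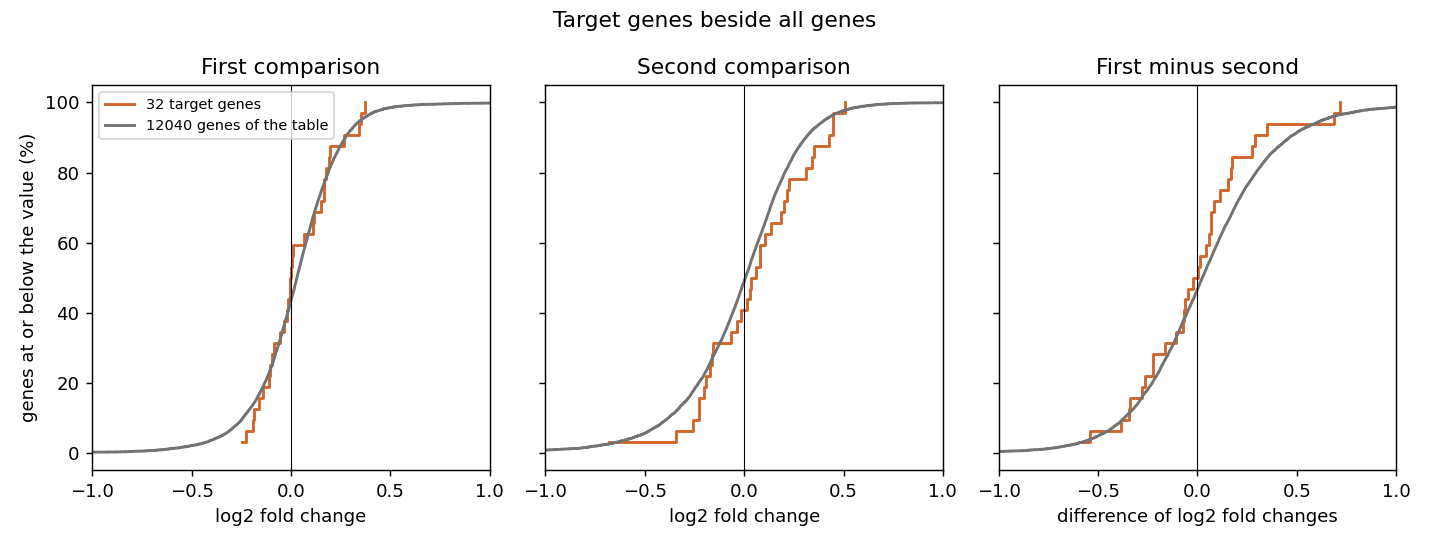
Cumulative share of genes (y axis, percent) at or below each log2 fold change or difference (x axis) for the 32 target genes and the 12040 genes of the table; all-gene values beyond 1 in size are not drawn. The curves lie close together in the first comparison (medians -0.0012 and 0.03), and the targets lie to the right of all genes over most of the range in the second (0.05 and 0.0063).

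Among the targets that drive entry into the cell cycle, the D-type cyclins CCND1 and CCND3 stood on opposite sides of 0 in each comparison. CCND2, a D-type cyclin outside the 32 targets, lay on the side of CCND3 in both. CCND1, cyclin D1, binds CDK4 and CDK6 to phosphorylate the retinoblastoma protein. For CCND1 the authors' deposited table gave 0.37 first and -0.35 second. The first value is above those of 95.8% of all genes and the second above those of 11.7%. The difference of 0.72 is the highest among the 32 targets. CCND3, cyclin D3, which has the same partners, had values of -0.16 and 0.23 in the authors' deposited table, a difference of -0.39. For CDK6, the kinase subunit, the authors' deposited table gave -0.18 and 0.08. CDC25A, the phosphatase that removes inhibitory phosphates from cyclin-dependent kinases, had a first value of -0.04 and a second of 0.19 in the authors' deposited table. CCND3, CDK6 and CDC25A were thus below 0 in the first and above it in the second comparison, opposite to CCND1. Of all genes, 20.9% were below 0 first and above it second, and 26.3% the reverse. After the median of genes of like GC content was subtracted, the second value of CDK6 was -0.01, while CCND1, CCND3 and CDC25A kept their sides of 0. None of the 4 passed the threshold in either comparison.

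Of the checkpoint and replication genes, WEE1 stood above 0 in both comparisons. WEE1 is the kinase that holds back mitosis by phosphorylating CDK1. Its values in the authors' deposited table were 0.34 and 0.45, short of the threshold but above those of 94.4% and 96.5% of all genes. CHEK1, the kinase that relays replication stress to CDC25A, had -0.0047 and 0.02 in the authors' deposited table. Claspin, CLSPN, through which ATR activates CHEK1, had -0.19 and -0.26 in the authors' deposited table. TLK1, a kinase of histone chaperones, and CDC14B, a phosphatase, lay between -0.09 and 0.14 in both comparisons of the authors' deposited table. WEE1 was the highest of these 5 genes and CLSPN the lowest in both comparisons.

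None of the 5 measured signalling targets rose or fell. In each comparison 4 of them were above 0, where 56.5% and 51.1% of all genes were. FGF2, a growth factor that signals through receptor tyrosine kinases, was the exception in the first comparison, at -0.11 in the authors' deposited table, and was at 0.43 in the second. Its difference was -0.54, and 3.8% of all genes had a lower one. SKI, a corepressor of SMAD proteins in TGF-beta signalling, had 0.27 and 0.31 in the authors' deposited table. AXIN2, a scaffold of the complex that degrades beta-catenin and itself a target of Wnt signalling, had values of 0.19 and -0.16 in the authors' deposited table. SIAH1, a ubiquitin ligase, was listed at 0.15 and 0.22 and AMOTL1, a binding partner of YAP, at 0.17 and 0.06 in the authors' deposited table. FGF2 and AXIN2 therefore had their comparisons on opposite sides of 0, in opposite senses.

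Among transcription and chromatin genes, ZNF622, a zinc finger protein, rose in the second comparison. For ZNF622 the authors' deposited table gave 0.17 first and 0.51 second, and 97.8% of all genes were below the second value. Subtracting the median of all genes brings the value of ZNF622 in the second comparison just under the threshold. PHF19, a Polycomb-like protein of the PRC2 complex, had a first value of 0.11 and a second of -0.16 in the authors' deposited table. ATXN7L3, of the deubiquitinase module of SAGA, had 0.20 and 0.03, and the zinc finger factor PLAG1 had -0.10 and -0.17, in the authors' deposited table.

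None of the 5 transport and cytoskeleton genes rose or fell. ARL2, a small GTPase that acts in tubulin folding, had 0.35 and 0.20 in the authors' deposited table, and the first value is next to that of CCND1 at the top of the 32 targets. It is uncertain, as ARL2 shares exons with a readthrough transcript into SNX15. RAB9B, a small GTPase of endosomal transport, had nearly equal values of -0.22 and -0.23 in the authors' deposited table. KIF1B, a kinesin motor, had values of -0.14 and -0.20 in the authors' deposited table. ACTR1A, a dynactin subunit, had a first value of -0.00026 and a second of -0.01 in the authors' deposited table. LUZP1, a cytoskeletal protein, had -0.06 and 0.11 in the authors' deposited table. KIF1B and LUZP1 had the most match starts of the 32 targets, 6 each, and lay on the same side of 0 in the first comparison only.

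Of the genes for ubiquitin enzymes, protease control and innate immunity, RECK and CARD8 stood high in the second comparison. RECK, a membrane-anchored inhibitor of matrix metalloproteinases, had values of -0.0020 and 0.34 in the authors' deposited table. CARD8, an inflammasome sensor, had a first value of 0.17 and a second of 0.45 in the authors' deposited table, although no seed match was found in its 3' UTR. UBE2Q1, a ubiquitin-conjugating enzyme, had -0.02 and -0.06, and RNF125, a ubiquitin ligase that acts on RIG-I, had -0.01 and -0.19, in the authors' deposited table. C2orf42 had 0.0052 and 0.08 in the authors' deposited table.

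The widest spread within a role in the second comparison was among genes of lipid and amino acid metabolism. SLC7A2, a transporter of cationic amino acids, fell in the second comparison. For SLC7A2 the authors' deposited table gave 0.0086 first and -0.68 second, and 2.53% of all genes were below its second value. Its difference was 0.69. SPTLC1, a subunit of serine palmitoyltransferase, which starts sphingolipid synthesis, had values of -0.25 and 0.35 in the authors' deposited table, a difference of -0.60. SPTLC1 was the lowest target in the first comparison and in the difference. PISD, phosphatidylserine decarboxylase of mitochondria, had a first value of 0.12 and a second of 0.03 in the authors' deposited table. TMEM189, the desaturase of plasmalogen synthesis, had 0.07 and -0.23 in the authors' deposited table, and its value is uncertain because it shares exons with a readthrough transcript into UBE2V1.

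When the targets were split by the length of their seed match, those with the 8-base match had a median of 0.14 in the second comparison, against 0.07 over the 479 carriers in the table. Targets with only a 7-base match had a median of -0.02, against 0.01 over all 2333 such genes. The 3 targets without a match ran from -0.26 to 0.45 there. In the first comparison the medians of the targets were -0.0047 with the 8-base match and 0.0069 with a 7-base match, against 0.0087 and 0.03 over all such genes. The 8-base targets in the second comparison reached from CCND1 at -0.35 to ZNF622 at 0.51 in the authors' deposited table, so their range covered 13 of the 14 targets with a 7-base match.

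**Figure D3:**
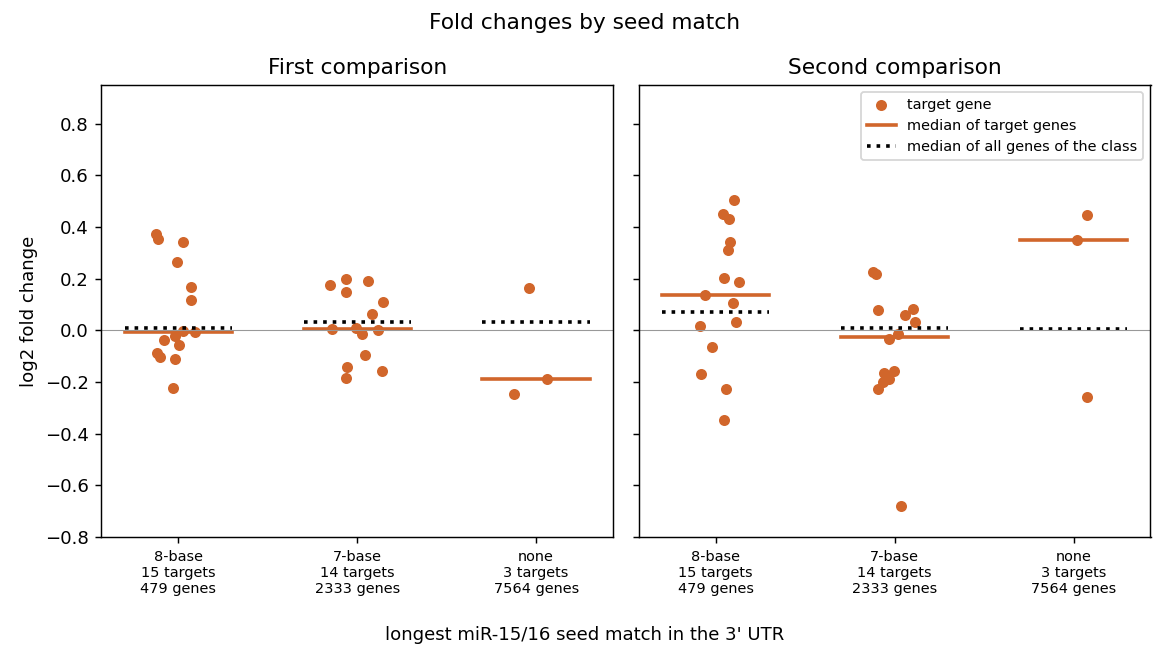
Deposited log2 fold changes (y axis) of the 32 target genes (points) by the longest seed match in the 3' UTR (x axis), with the median of the targets (solid line) and of all genes of the table in that class (dotted line). In the second comparison the target medians were 0.14 with an 8-base match and -0.02 with a 7-base match, with wide overlap of the points.

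Across the whole table, carriers of the 8-base match had a median of 0.07 in the second comparison, against 0.0056 for genes with no match. In the first comparison the medians were 0.0087 and 0.03. Carriers differed from the rest in other ways too. Their median 3' UTR was 3057 bases long, against 868 bases for genes with no match, and the median GC content of their transcripts was 44.2%, against 49.1%. GC content itself moved with the fold changes. Genes were split into 3 equal classes by GC content. The low class (up to 44.2%) had medians of -0.05 and 0.09 in the first and the second comparison, and the high class (above 54.2%) had 0.12 and -0.08. Within the low class, the 237 carriers of the 8-base match had a median of 0.14 in the second comparison, against 0.09 for the 2420 genes with no match. Within the middle class these medians were 0.03 and 0.02, and within the high class -0.10 and -0.08. The gap of 0.06 over all genes was thus smaller within each class, and below 0 in the high class. The targets with the 8-base match had second medians of 0.02 in the low class (5 genes), 0.19 in the middle (7) and 0.20 in the high (3). They thus lay below all carriers in the low class and above them in the middle and high classes. The part of GC content and of 3' UTR length in the values of the targets was not tested.

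Of the 32 targets, 12 lay in the low class of GC content, 13 in the middle and 7 in the high class. The median difference between the comparisons was -0.04 for the 12, against -0.14 for all genes of that class. It was -0.06 for the 13, against 0.01, and 0.08 for the 7, against 0.20. FGF2 and SPTLC1, the lowest targets in the difference, are both in the low class, with 36.8% and 42.9% GC, and neither passed the threshold after the median of that class was subtracted. CCND3, in the high class, then passed it at -0.58. SLC7A2, with 41.0% GC, is in the low class as well and had a difference of 0.69, on the other side of its median.

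**Figure D4:**
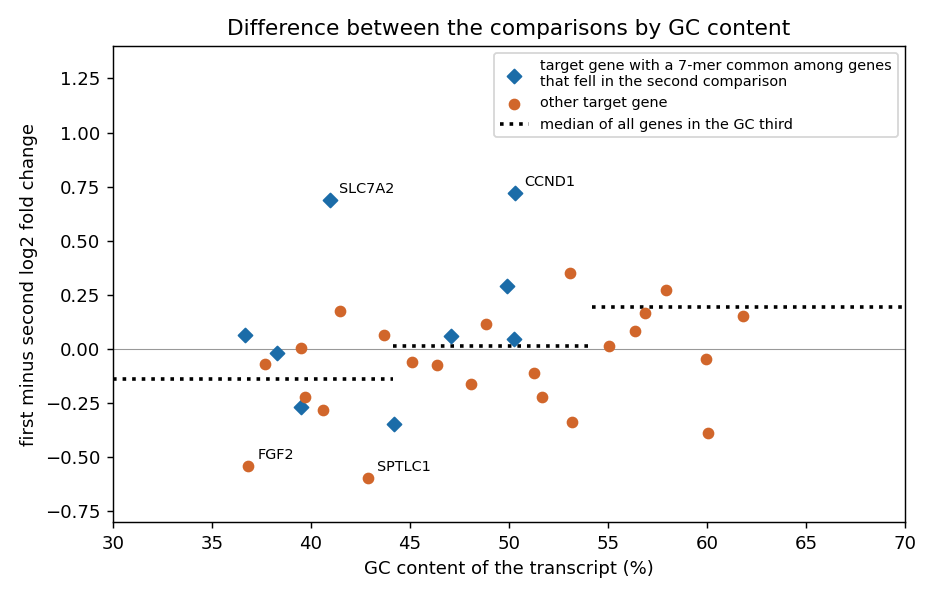
First minus second log2 fold change (y axis) of the 32 target genes by GC content of the transcript (x axis, percent); diamonds mark the 9 targets with GTGACTT or TGACTTA in the 3' UTR, and dotted lines give the median of all genes in each class of GC content. The all-gene medians are -0.14, 0.01 and 0.20, and the diamonds lie on both sides of 0, from RECK at -0.34 to CCND1 at 0.72. These strings were picked from the second comparison, so the place of their carriers is not independent evidence.

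A pair of 7-base strings unrelated to the miR-15 seed, GTGACTT and TGACTTA, stood in the 3' UTR of many genes that fell in the second comparison. Of 572 genes with a 3' UTR that fell, 223 carried either, a share of 39.0%, against 20.9% of all genes. Both strings had been picked earlier from the values of this comparison. Over all genes, carriers had a median 3' UTR of 2923 bases and a median GC content of 43.8%, against 907.5 bases and 50.5% for the rest. Among the targets 9 carried one. In the authors' deposited table their second values ran from -0.68 in SLC7A2 to 0.34 in RECK. CCND1 was at -0.35 there, while the carriers CDK6 and CHEK1 had 0.08 and 0.02, in the authors' deposited table. The median of these 9 in the second comparison was -0.17, against 0.11 for the 23 targets without, while over all genes it was -0.05 with and 0.02 without. These medians follow in part from how the strings were picked. A second pair, CAATCTA and AATCTAA, picked in the same way from the first comparison, was present in 7 targets, whose median there was -0.09, against 0.0052 for the 25 without. Over all genes these medians were -0.10 and 0.05. Of 190 genes with a 3' UTR that fell in the first comparison, 112 (58.9%) carried either of this pair, against 14.4% of all genes. The median 3' UTR of its carriers was also longer, at 3142 bases against 994 bases. The part of these strings in the values of CCND1 and SLC7A2 was not tested.

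The transcripts that host the microRNA genes were also in the table. DLEU2, the long noncoding host of miR-15a and miR-16-1, had values of 0.25 and 0.47 in the authors' deposited table. SMC4, a condensin subunit whose gene hosts miR-15b and miR-16-2, had a first value of -0.04 and a second of 0.33 in the authors' deposited table. Neither rose, and their levels do not give those of the mature microRNAs.

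All 34 genes of a further list, often named as miR-15 or miR-16 targets, had rows. In the first comparison SESN1 rose and CREBL2 fell, where 1.46% of all genes rose and 2.04% fell, and the median was 0.0010, against 0.03 over all genes. In the second comparison CREBL2 and ITGA2 rose and CCNE1 fell, where 2.33% of all genes rose and 5.59% fell. The median there was 0.10, against 0.0063 over all genes, and 24 of 34 were above 0, against 51.1% of all genes. In the difference 2 of the 34 lay at 0.5 or more and 6 at -0.5 or less, where 8.6% and 4.82% of all genes did, and the median was -0.04, against 0.02 over all genes. The authors' deposited table gave CREBL2, a bZIP factor, as -0.84 and 0.71, and SESN1, a stress-induced sestrin, as 0.53 and 0.08. ITGA2, an integrin subunit, was at 0.09 and 0.61, and VEGFA, the endothelial growth factor, at 0.43 and -0.29, in the authors' deposited table. BCL2, a survival factor and a classic target of the family, named here after its values were seen, had 0.21 and 0.29 in the authors' deposited table.

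For 29 regulators of G1 and S entry outside the 32 targets, of which 3 are also in the list of 34, the first comparison had a median of -0.03 and the second one of -0.14. Over all genes these medians were 0.03 and 0.0063. CCNE2 and E2F5 fell in the first, where 2.04% of all genes did. In the second 1 gene rose and 5 fell, where 2.33% and 5.59% of all genes did. CDKN1B, the p27 inhibitor of cyclin-dependent kinases, rose in the second and had values of 0.46 and 0.75 in the authors' deposited table. E2F5, a member of the E2F family, had a first value of -0.63 and a second of -1.21 in the authors' deposited table. CDKN1A, the p21 inhibitor, had 0.48 and -1.01 in the authors' deposited table. CCNE1 and CCNE2 are the cyclins that act after the D-type cyclins in G1. CCNE1 had -0.10 and -0.79, and CCNE2 had -0.64 and -0.67, in the authors' deposited table.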

How the data were processed

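HEK293 poly(A) RNA from 3 libraries was described from the 2 columns of log2 fold changes in the authors' deposited table of 12040 genes. Per the submitters' processing notes, the build was hg19 and the tools included Cuffdiff 2.1.1, Cufflinks, TopHat2 2.06, SAMtools and CASAVA 1.8.2, with no roles given. RNA was extracted with TRIzol and sequenced by a TruSeq protocol, per the labels' protocols. The 3 level columns carry no names, so they could be tied to no sample and were left aside, except to test that each deposited log2 fold change equals a log2 ratio with 1 added to both levels (largest deviation 4.97e-12). Adding 1 shrinks the fold changes of low genes. The sources used here do not say whether counting used strand, so overlapping antisense reads cannot be told apart.

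Counts, medians and percentiles were computed with Python 3.11.15, pandas 2.3.3 and numpy 2.4.6, and functions were tested on simulated data. Each gene was given 1 coding GENCODE 29 transcript, by APPRIS rank and then by 3' UTR length; 10585 of 12040 symbols matched, 2 of them by an older symbol. The targets, roles, lists, thresholds and alternatives were chosen with earlier results of these data known. Genes named with values are the targets, the targeted enzymes, the microRNA hosts and up to 2 genes at each end of each list, and BCL2, which was named after its values were seen.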

Additional observations from a re-analysis of the deposited data

Results flagged for a closer look

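CCND1 stood past 0.25 in opposite directions, with 0.37 first and -0.35 second in the authors' deposited table. Its first minus second log2 fold change was 0.719. That difference was not tested, for lack of replicate libraries. No other target stood past 0.25 in opposite directions, but SPTLC1 came close, at -0.247 first and 0.351 second. The share of all genes past 0.25 in opposite directions was not computed, so how unusual CCND1 is in this cannot be said.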

How the results depend on the processing

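With a threshold of 0.25 in place of 0.5, 4 targets passed in the first comparison, 10 in the second and 12 in the difference. With a threshold of 1 the count was 0 in all 3. Subtracting the median of all genes, or of the same GC class, left 1 called target in the second comparison, SLC7A2. Without the 12 targets that carry any of the 7-base strings picked from these data, the counts were 1 in the second comparison and 2 in the difference, and the medians were 0.058 in the first and 0.132 in the second. The smaller number of targets lowers those counts by construction. The rise in the medians also follows in part from the choice of strings, which were picked from the values of these comparisons. How large that part is was not tested, so these medians are not a cleaner measure of the targets. Centring on GC classes left 3 called targets in the difference, but not the same ones: FGF2 (-0.40) and SPTLC1 (-0.46) were lost and CCND3 (-0.58) was added. The shares of all genes called after either centring were not computed, so the centred counts have no background beside them. Under the remaining alternatives that were run, counts stayed within 1.5 times and medians within 0.05 of the values reported. Of the 96 single values (32 targets, 3 quantities) none of those past 0.5 changed sign on centring, and 45 moved by 0.05 or more when centred on GC classes. The GC alternative, and both centrings of single genes, were added after seeing the data. The planned pseudocounts of 0.1 and 5, the level floor of 5 and the comparison with genes of like level were not run, because they need the unnamed level columns. No paired analysis was possible because each group has 1 library. Unknown depth limits how firmly small fold changes can be read.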
